A study of Homo sapiens with 16 samples.

Results

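The genes described here are 33 enzymes of nucleotide and one-carbon synthesis, chosen by symbol with earlier results of these data known. They come from the 28167 gene symbols of 1 FPKM table (fragment counts scaled to transcript length and to the size of the library). They were taken in 5 branches: 11 purine genes, 5 pyrimidine genes, 7 genes that make or handle deoxynucleotides, 5 folate genes, and 5 genes of salvage and breakdown. All 33 were in the table and all 33 passed the filter on low values in every comparison. NME4 passed it only through YCC10, since it was below 1 FPKM in every SNU719 library. The libraries came from SNU719 and YCC10, established gastric cancer cell lines that carry Epstein-Barr virus. In the MYB set, each line was given siCtrl (genotype WT) or siMYB (MYB knockdown), with 2 libraries per group and line. In the TCF7 set, each line was given siCtrl (WT) or siTCF7 (TCF7 knockdown), and in the CRISPRi set sgCtrl (WT) or sgMYB-E3 (MYB knockdown), with 1 library per group and line, which makes 16 libraries in all. Both arms of the CRISPRi set carry the same CRISPRi treatment, and the labels state neither what E3 is nor whether the cells were 1 clone or a pool. The culture medium was RPMI1640 for SNU719 but EMEM for YCC10, so the line and its medium cannot be told apart. Nothing in the labels says that replicates came from separate cultures, so p-values measure only the spread between these libraries, which may be technical.

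MYB is a DNA-binding transcription factor best known from blood progenitors, and TCF7 is a transcription factor of the Wnt pathway. Purine bases are built stepwise on phosphoribosyl pyrophosphate, pyrimidine bases are built first and then joined to it, and both need carbon units carried by folate or nitrogen from glutamine. Ribonucleotide reductase turns ribonucleotides into deoxynucleotides, thymidylate synthase makes the base particular to DNA, and salvage enzymes reuse nucleosides; many of these genes are known to be more active in cells that replicate their DNA.

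The targeted genes were read first. MYB was at 45.7 and 44.2 FPKM in the SNU719 siCtrl libraries and at 9.66 and 8.45 FPKM with siMYB, and at 29.4 and 27.3 against 1.95 and 1.43 FPKM in YCC10. This left 20.2% of the control level in SNU719 and 5.95% in YCC10. MYB was also lower with siTCF7, at 25.3 against 45.1 FPKM in SNU719 and 5.40 against 25.6 FPKM in YCC10, a log2 change of -1.43 ± 0.26 (SE; limma adjusted p = 0.0113), so the siTCF7 libraries have less of both factors. TCF7 itself stood at 7.99 against 26.9 FPKM and at 4.14 against 22.6 FPKM there. With sgMYB-E3, MYB was at 18.3 against 47.6 FPKM in SNU719 and 12.3 against 21.1 FPKM in YCC10. Its log2 change of -1.03 ± 0.26 did not pass the test (limma adjusted p = 0.981). That SE comes from the same fit as for siTCF7, and a difference between lines in either effect adds to it. TCF7 did not pass with siMYB (-0.16 ± 0.07, limma adjusted p = 0.152).

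As a check of the cells, 5 epithelial markers summed to 3759 to 12003 FPKM in the 16 libraries with none at 0, while the summed lymphoid, fibroblast and endothelial markers did not exceed 0.842, 0.736 and 0.0165 FPKM. The 4 libraries numbered 1 in the MYB set stand apart: their FPKM over all genes summed to 530695 to 653826, against 857784 to 1360020 in the other 12. In bulk RNA, fewer cells in a state and less RNA per cell cannot be told apart.

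In the 8 control libraries the members covered a wide range of levels. NME1, a nucleoside diphosphate kinase, was the highest, with a mean of 397 ± 51.4 FPKM (SD, n = 4) in SNU719 and 387 ± 76.7 in YCC10. Its level is uncertain because it shares sequence with NME2 (543 to 1468 FPKM over the libraries) and with the readthrough gene NME1-NME2 (2.58 to 10.8 FPKM). After it in SNU719 came MTHFD2 (154 ± 20.1), TYMS (146 ± 4.02) and IMPDH2 (145 ± 7.31), which did not differ beyond their spread. DHODH was low in both lines, at 3.69 ± 0.220 and 4.40 ± 0.602 FPKM.

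The control libraries differed between lines for 20 of the 33 members (limma adjusted p under 0.05, 8 control libraries, set as a covariate): 13 were higher and 7 lower in YCC10. The share called among all genes tested was 64%, with 30.4% higher and 33.6% lower, so the members' total is close to the background. The largest gap was NME4, the mitochondrial relative of NME1, at 0.849 ± 0.0406 FPKM in SNU719 and 54.2 ± 12.8 FPKM in YCC10 (SD, n = 4), a log2 difference of 4.86 ± 0.13. NME4 is counted among the 13, but it passed the filter on low values only through YCC10. Its test therefore adds no support, and only its levels are given. IMPDH1, 1 of the pair of enzymes at the entry to guanine nucleotides, was at 8.46 ± 0.788 against 63.3 ± 12 FPKM, while its partner IMPDH2 was at 145 ± 7.31 and 141 ± 19.6 FPKM and did not pass (limma adjusted p = 0.65). PRPS1, PRPS2, GART, MTHFD1L and ADA were also higher in YCC10, by 0.61 to 0.76 on the log2 scale. DCTPP1, DUT, CAD and MTHFD2 were lower in YCC10, by -0.60 ± 0.10, -0.47 ± 0.09, -0.38 ± 0.06 and -0.37 ± 0.07.

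**Figure D1:**
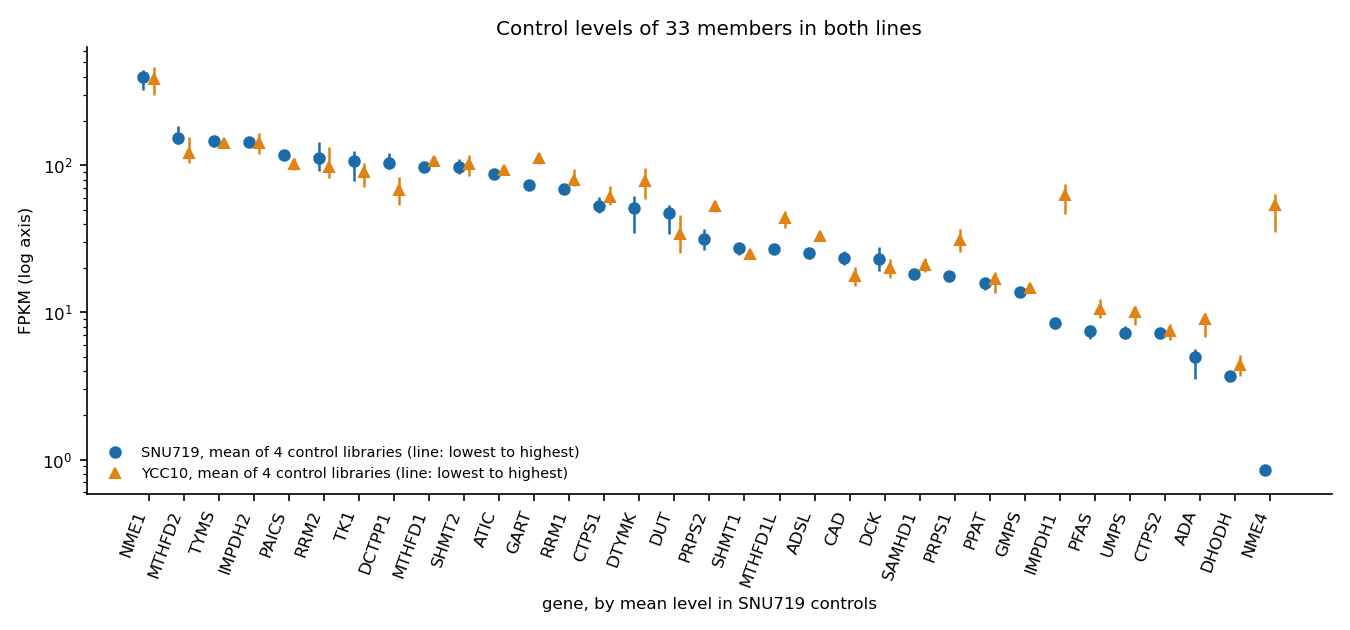
Level of the 33 members in the control libraries, FPKM on a log axis, for SNU719 (circles) and YCC10 (triangles); points are means of 4 libraries and lines run from the lowest to the highest. NME4 and IMPDH1 are far higher in YCC10, while NME1 leads in both lines.

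With siMYB, the members were lower almost throughout and none rose. In SNU719, 16 of 33 fell and 0 rose at an adjusted p under 0.05, where limma called 22.6% of all genes tested, 14.6% as lower and 8.04% as higher. The median log2 change of the members was -0.32, and that of all genes was -0.06. In YCC10, 26 of 33 fell and 0 rose, against 41.8% of all genes called, 26.5% as lower and 15.3% as higher; the medians were -0.53 and -0.07. Over both lines 26 fell and 0 rose, against 29.4% of all genes, 20.7% lower and 8.76% higher; the medians were -0.47 and -0.07. The split over all genes, 2501 lower and 1060 higher, became 1490 and 1593 with median-of-ratios scaling, under which 22 members fell and 0 rose.

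The plain levels show the same picture. In SNU719 both siMYB libraries were below both siCtrl libraries for 32 of 33 members, the exception being GART, and in YCC10 for 30 of 33, the exceptions being CTPS2, NME4 and SHMT2. Over all genes tested the shares were 40.1% and 42.6%. The mean siMYB level was under 80% of control for 19 members in SNU719 and 25 in YCC10, against 20.5% and 29.8% of all genes. The lowest member was NME4 in SNU719, at 41.8% of a control level below 1 FPKM, and TYMS in YCC10, at 40.3%. The SNU719 counts here include NME4.

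How many members passed depended on single libraries. The shares of all genes above belong to the main fit, so the counts below cannot be set against them. In SNU719 the count was 8 without siCtrl 1, 7 without siCtrl 2, 8 without siMYB 1 and 8 without siMYB 2, and 29 with the replicate number as a block, which added PRPS2, PPAT, PFAS, IMPDH2, UMPS, DTYMK, NME1, NME4, SHMT2, MTHFD1L, TK1, DCK and DCTPP1, all lower. Over both lines it was 16 without YCC10 siCtrl 2 and 17 without YCC10 siMYB 1. With all 4 libraries numbered 1 left out, which leaves 2 residual degrees of freedom, 0 members passed in SNU719, YCC10 or both lines together by limma, with 2, 13 and 17 at an unadjusted p under 0.05; the medians were -0.32, -0.55 and -0.46, and 32, 33 and 33 members were below 0.

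**Figure D2:**
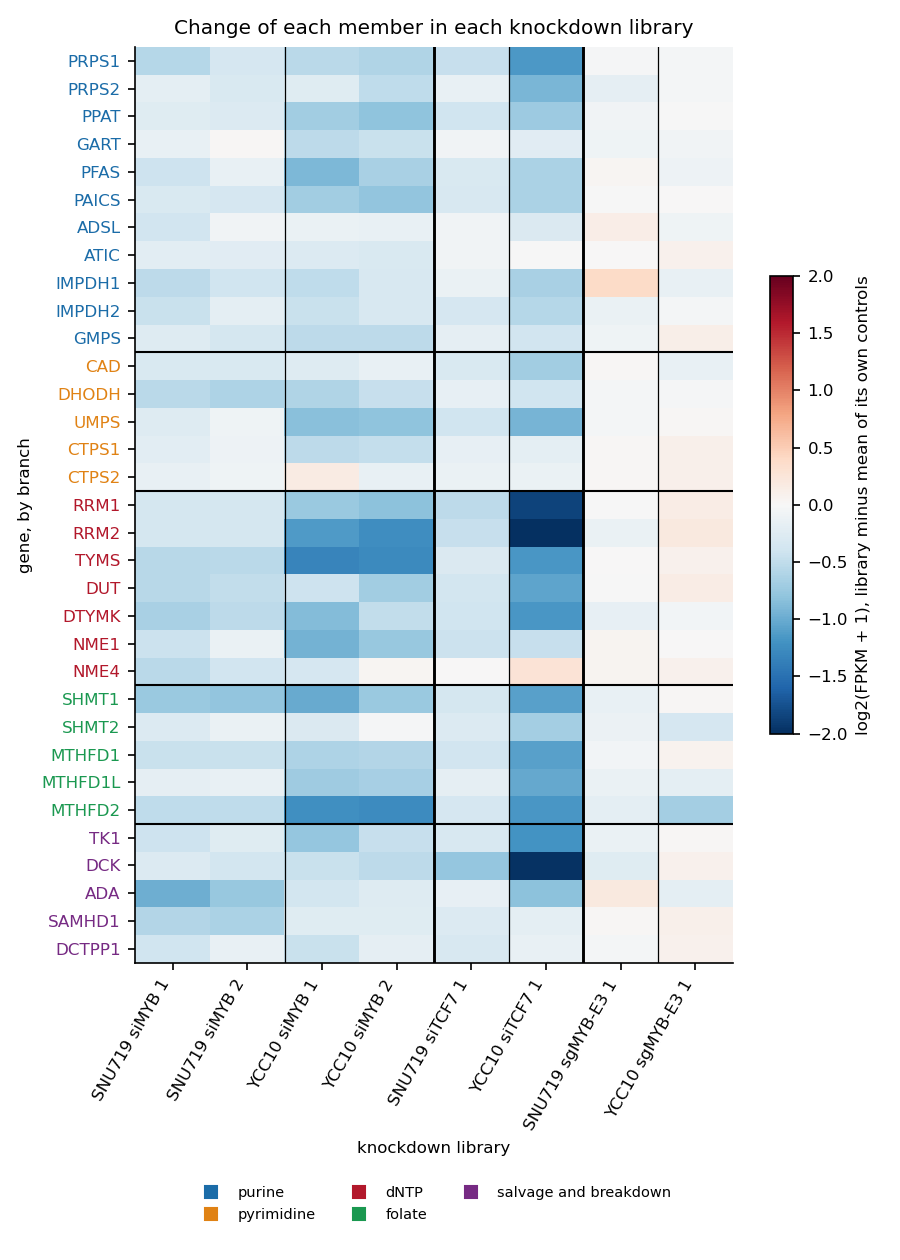
Change of each member (rows, coloured by branch) in each of the 8 knockdown libraries (columns), as log2(FPKM + 1) minus the mean of the controls of the same set and line; blue is lower, red is higher, and the colour scale ends at 2 in both directions. The siMYB and siTCF7 columns are mostly blue and darkest in YCC10, and the sgMYB-E3 columns are near white apart from MTHFD2 in YCC10.

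In the purine branch 8 of 11 members fell over both lines, with a median log2 change of -0.41, and GART, ADSL and PRPS2 did not pass. PAICS, which carries out a pair of middle steps of the ring, was at 125 and 112 FPKM in the SNU719 siCtrl libraries and 95.3 and 93.7 with siMYB. In YCC10 it was at 111 and 103 against 65.6 and 61.8 FPKM. The groups did not overlap in either line, and PAICS fell by 0.53 ± 0.10 (SE) on the log2 scale over both lines (limma adjusted p = 0.00976).

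PPAT, the first committed enzyme of the purine pathway, lies head to head with PAICS on chromosome 4, with annotated start sites at 56435615 and 56435752, 137 bases apart. Most of the stretch between them is shown because these neighbours share it, leaving out the bases next to the PAICS start site that an annotated exon touches. It is 125 bases on the plus strand (RefSeq sequence, GRCh38.p14, chr4:56435616-56435740), printed in lower case because it holds no match to the MYB motif TAACNG or CAACNG on either strand.
PPAT to PAICS: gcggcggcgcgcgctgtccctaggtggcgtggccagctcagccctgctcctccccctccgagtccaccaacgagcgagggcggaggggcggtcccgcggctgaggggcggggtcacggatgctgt

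PPAT was at 15.8 and 14.2 FPKM against 12.5 and 12.1 in SNU719, and at 18.7 and 16.5 against 10.4 and 9.58 in YCC10. Here too every siMYB library was below every control of its line. The fall over both lines was 0.51 ± 0.11 on the log2 scale (limma adjusted p = 0.0172). In SNU719 alone its change was -0.26 ± 0.09 (limma adjusted p = 0.0802; 0.0189 with the replicate block), and that of PAICS -0.32 ± 0.08 (limma adjusted p = 0.031), a call that was lost in 8 of 17 alternatives.

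PFAS, an amidotransferase of the same chain, was at 6.61 and 7.28 FPKM against 4.94 and 6.15 in SNU719, and at 9.37 and 11.3 against 5.05 and 6.19 in YCC10. Its siMYB libraries were the lower ones in both lines, with a wide spread between replicates, and it fell by 0.53 ± 0.13 on the log2 scale (limma adjusted p = 0.0265). PRPS1, which makes phosphoribosyl pyrophosphate, was at 17.6 and 18.7 FPKM against 11.9 and 14.2 in SNU719, and at 32.9 and 37.0 against 23.7 and 22.7 in YCC10. It fell by 0.51 ± 0.07 on the log2 scale (limma adjusted p = 0.00456), and its groups did not overlap. Its paralog PRPS2 changed by -0.31 ± 0.10 (limma adjusted p = 0.0508; 0.0239 with the replicate block).

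ATIC, which closes the purine ring, fell by 0.25 ± 0.04 on the log2 scale, and ADSL, which acts before it and again on the way to AMP, stood at -0.18 ± 0.07 (limma adjusted p = 0.104). On the guanine side IMPDH1 fell by 0.43 ± 0.07, GMPS by 0.41 ± 0.06 and IMPDH2 by 0.35 ± 0.08 on the log2 scale. GART, a trifunctional enzyme of the early steps, was at 73.1 and 76.0 FPKM against 66.8 and 76.2 in SNU719, where the groups overlapped. In YCC10 it was at 115 and 119 against 81.2 and 85.8 FPKM and fell by 0.48 ± 0.08 on the log2 scale (limma adjusted p = 0.0045).

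In the pyrimidine branch 4 of 5 members fell over both lines, with a median of -0.33, and CTPS2 did not pass (-0.05 ± 0.08). DHODH, the mitochondrial step of the pathway, was at 3.53 and 3.96 FPKM against 2.28 and 2.08 in SNU719, and at 4.43 and 5.15 against 2.80 and 3.21 in YCC10. No siMYB library reached a control, and the fall was 0.55 ± 0.07 on the log2 scale (limma adjusted p = 0.00318). UMPS, which makes UMP, was at 6.87 and 7.44 FPKM against 5.81 and 6.66 in SNU719, and at 10.6 and 10.4 against 5.43 and 5.61 in YCC10. The groups were apart in both lines, but narrowly in SNU719; over both lines it fell by 0.50 ± 0.13 on the log2 scale (limma adjusted p = 0.0328; 0.0779 with the replicate block).

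CTPS1, a CTP synthase, was at 48.6 and 47.3 FPKM against 41.2 and 44.5 in SNU719, and at 59.2 and 59.3 against 40.9 and 42.3 in YCC10. It was lower in every siMYB library and fell by 0.33 ± 0.08 on the log2 scale (limma adjusted p = 0.0237; 0.0617 with the replicate block). CAD, which holds the first 3 activities of the pathway on 1 protein, was at 21.0 and 22.6 FPKM against 17.5 and 17.5 in SNU719, and at 15.1 and 17.4 against 13.5 and 14.5 in YCC10. It fell by 0.25 ± 0.06 on the log2 scale (limma adjusted p = 0.0264) and was the only member that passed in SNU719 (limma adjusted p = 0.049) and not in YCC10 (0.0987; 0.0268 with the replicate block); the difference between lines was 0.10 ± 0.12 and did not pass. The SNU719 call of CAD was lost in 11 of 17 alternatives.

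The deoxynucleotide branch held the largest median, -0.57, with 6 of 7 members lower over both lines and NME4 not passing. TYMS, thymidylate synthase, is shown with its upstream sequence because it had the largest log2 change of all members in this comparison. The stretch is 201 bases on the plus strand (RefSeq sequence, GRCh38.p14, chr18:657403-657603) and holds no match to the MYB motif.
TYMS: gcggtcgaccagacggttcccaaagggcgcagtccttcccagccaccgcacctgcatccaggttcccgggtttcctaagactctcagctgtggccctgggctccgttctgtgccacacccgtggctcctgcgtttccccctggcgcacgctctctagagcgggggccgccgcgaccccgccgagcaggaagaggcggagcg

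TYMS was at 149 and 146 FPKM against 100 and 101 in SNU719, and at 141 and 137 against 55.2 and 56.6 in YCC10. Replicates lay close together and the siMYB libraries were far below the controls in both lines. Over both lines TYMS fell by 0.92 ± 0.15 on the log2 scale (limma adjusted p = 0.00645). Its antisense neighbour ENOSF1 was at 6.13 to 9.84 FPKM over the libraries; the strand setting of the counting is not given in the sources used here, so reads of this pair are uncertain.

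Ribonucleotide reductase fell in both subunits. RRM2, the small subunit, was at 96.0 and 91.5 FPKM against 73.2 and 73.2 in SNU719, and at 87.7 and 81.6 against 38.2 and 35.3 in YCC10. RRM1, the large subunit, was at 71.8 and 67.7 FPKM against 54.7 and 54.2, and at 79.0 and 72.0 against 44.7 and 42.2. Groups were separate in each case. The falls were 0.77 ± 0.17 for RRM2 (limma adjusted p = 0.016; 0.0503 with the replicate block) and 0.57 ± 0.10 for RRM1 (limma adjusted p = 0.00783), both on the log2 scale.

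DTYMK, which phosphorylates dTMP, was at 52.6 and 61.5 FPKM against 36.0 and 39.4 in SNU719, and at 77.2 and 95.5 against 46.8 and 61.0 in YCC10. It was lower in every siMYB library with a wide spread, and fell by 0.63 ± 0.11 on the log2 scale (limma adjusted p = 0.009). DUT, which keeps dUTP low, fell by 0.54 ± 0.08 on the log2 scale and NME1 by 0.57 ± 0.14, the latter with the sequence overlap named above. NME4 was at -0.30 ± 0.11 (limma adjusted p = 0.0764); in SNU719 all its values were below 1 FPKM.

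**Figure D3:**
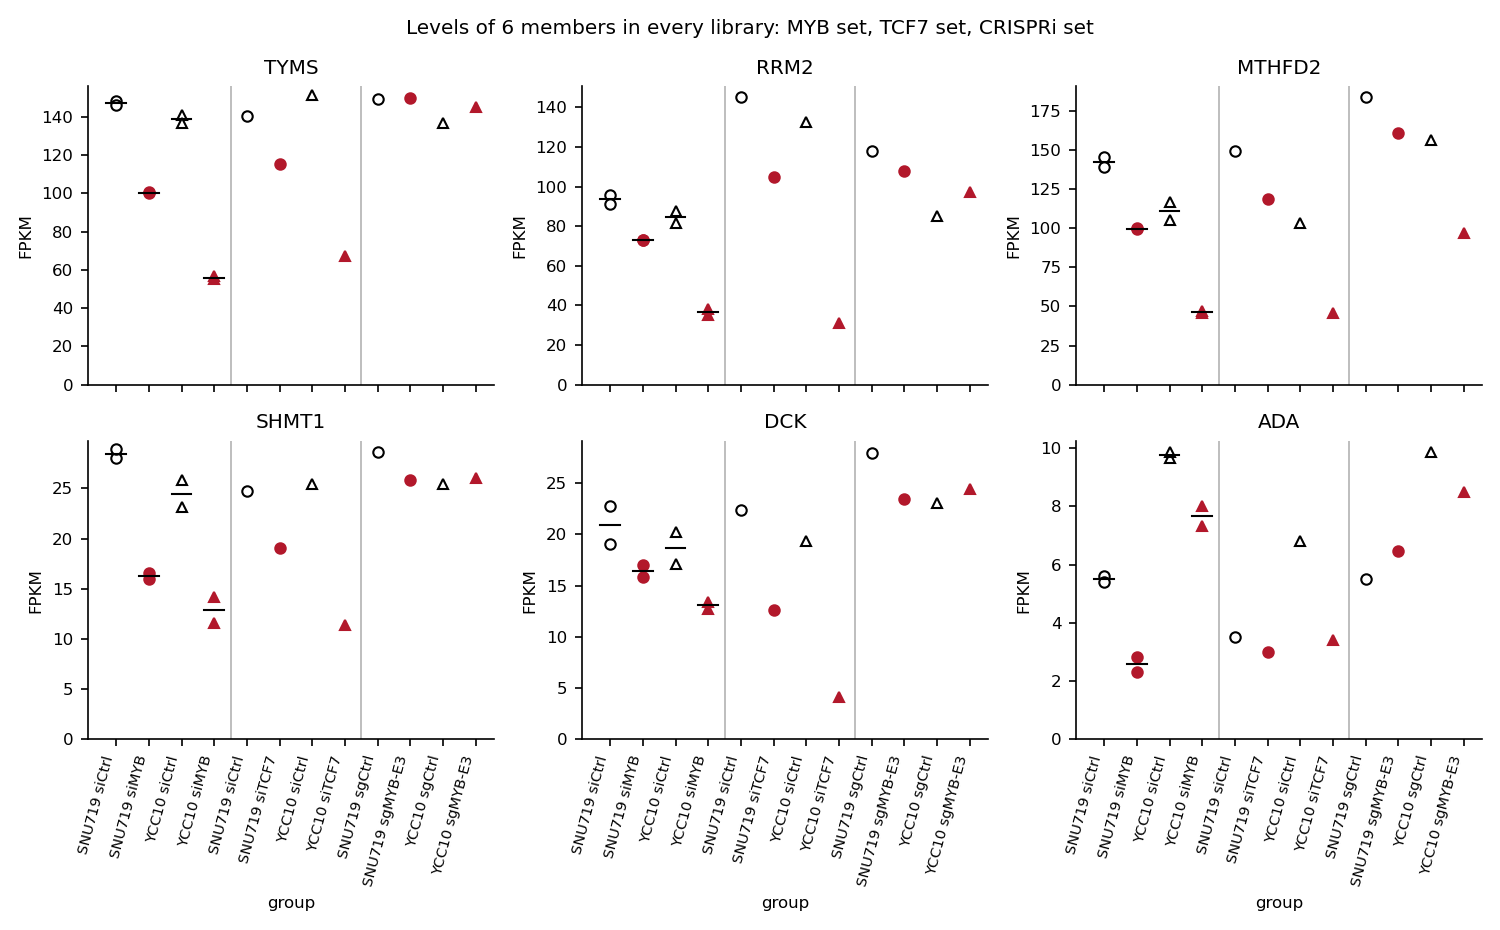
FPKM of TYMS, RRM2, MTHFD2, SHMT1, DCK and ADA in all 16 libraries, by set (divided by grey lines), line (circles SNU719, triangles YCC10) and group (open control, filled knockdown); bars mark means of 2 libraries. TYMS, RRM2 and MTHFD2 drop further in YCC10 with siMYB, ADA drops further in SNU719, and DCK is lowest in the YCC10 siTCF7 library.

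In the folate branch 4 of 5 members fell over both lines, with a median of -0.53, and SHMT2 did not pass (-0.18 ± 0.09, limma adjusted p = 0.164; 0.0388 with the replicate block). MTHFD2, of the mitochondrial arm, and SHMT1, the cytosolic serine hydroxymethyltransferase, had the largest changes, and their upstream sequences are shown for that reason. The MTHFD2 stretch is 197 bases on the plus strand (RefSeq sequence, GRCh38.p14, chr2:74198365-74198561); capitals mark the 2 matches to the MYB motif. The SHMT1 stretch is 237 bases on the minus strand (chr17:18363564-18363800) and holds none.
MTHFD2: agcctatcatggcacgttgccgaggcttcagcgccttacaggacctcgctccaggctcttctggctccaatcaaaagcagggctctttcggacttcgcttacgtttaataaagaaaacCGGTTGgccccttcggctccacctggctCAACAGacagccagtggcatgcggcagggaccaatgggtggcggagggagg
SHMT1: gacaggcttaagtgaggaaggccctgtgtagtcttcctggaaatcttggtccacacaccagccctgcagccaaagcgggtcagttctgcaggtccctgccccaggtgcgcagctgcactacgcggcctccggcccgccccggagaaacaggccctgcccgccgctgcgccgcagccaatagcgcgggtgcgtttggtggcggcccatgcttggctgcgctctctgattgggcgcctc

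MTHFD2 was at 145 and 139 FPKM against 99.8 and 99.7 in SNU719, and at 117 and 105 against 46.8 and 45.6 in YCC10. Its siMYB libraries were far below the controls, and it fell by 0.88 ± 0.15 on the log2 scale over both lines (limma adjusted p = 0.00769). SHMT1 was at 28.0 and 28.9 FPKM against 16.6 and 15.9 in SNU719, and at 23.1 and 25.8 against 11.6 and 14.2 in YCC10. The separation was similar in both lines, and the fall of 0.82 ± 0.07 on the log2 scale had the lowest adjusted p of the members (0.00145, limma). SHMT1 and GART stand on 2 rows of the table each, which were summed.

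MTHFD1, the cytosolic trifunctional enzyme, was at 96.4 and 97.7 FPKM against 70.9 and 71.2 in SNU719, and at 103 and 107 against 67.6 and 69.2 in YCC10. It fell by 0.53 ± 0.05 on the log2 scale (limma adjusted p = 0.00169) with little spread. MTHFD1L, its mitochondrial relative, was at 27.0 and 27.2 FPKM against 23.9 and 24.4 in SNU719, and at 48.8 and 48.0 against 29.1 and 30.2 in YCC10. Every siMYB library was below its controls; the fall of 0.42 ± 0.11 on the log2 scale passed (limma adjusted p = 0.0278), but not with the replicate block (0.0729).

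In salvage and breakdown 4 of 5 members fell over both lines, with a median of -0.42, and DCTPP1, a dCTP pyrophosphatase, did not pass (-0.29 ± 0.11, limma adjusted p = 0.0845; 0.0161 with the replicate block). ADA, adenosine deaminase, was at 5.60 and 5.42 FPKM against 2.31 and 2.84 in SNU719, and at 9.67 and 9.88 against 7.33 and 8.02 in YCC10. The groups were separate in both lines and further apart in SNU719; over both, ADA fell by 0.59 ± 0.12 on the log2 scale (limma adjusted p = 0.0141). SAMHD1, which breaks down deoxynucleoside triphosphates, was at 18.5 and 18.1 FPKM against 11.8 and 11.5 in SNU719, and at 19.2 and 18.8 against 15.9 and 15.9 in YCC10. It too fell more in SNU719, with 0.42 ± 0.08 on the log2 scale over both lines (limma adjusted p = 0.0109).

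TK1, the cytosolic thymidine kinase, was at 103 and 118 FPKM against 82.4 and 92.8 in SNU719, and at 87.5 and 104 against 55.5 and 69.2 in YCC10. DCK, deoxycytidine kinase, was at 22.8 and 19.0 FPKM against 17.0 and 15.9 in SNU719, and at 20.3 and 17.1 against 13.4 and 12.7 in YCC10. Neither gene's groups overlapped. TK1 fell by 0.47 ± 0.11 (limma adjusted p = 0.0218) and DCK by 0.40 ± 0.08 (limma adjusted p = 0.0143) on the log2 scale over both lines, and neither passed in SNU719 alone without the replicate block.

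The siMYB effect itself was compared between the lines. Of the 33 members, 12 passed this test: 10 fell further in YCC10 and 2 further in SNU719, where limma called 19% of all genes, 10.3% as lower in YCC10 and 8.65% as higher. RRM2 differed the most, by -0.83 ± 0.09 on the log2 scale (YCC10 minus SNU719; limma adjusted p = 0.00463), followed by TYMS at -0.75 ± 0.06 and MTHFD2 at -0.74 ± 0.09. UMPS, MTHFD1L, PPAT, RRM1, GART, PAICS and CTPS1 were between -0.65 and -0.34. ADA (0.55 ± 0.12) and SAMHD1 (0.37 ± 0.06) were the 2 that fell further in SNU719. DCTPP1, of the same branch, did not pass (-0.04 ± 0.22, limma adjusted p = 0.925). MYB itself was reduced further in YCC10, with a difference of -1.26 ± 0.16; whether the depth of the MYB knockdown bears on these genes was not tested.

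These differences rest on few libraries. Leaving out 1 library at a time gave 4 to 9 calls: 6 without SNU719 siCtrl 1, 5 without SNU719 siCtrl 2, 4 without YCC10 siCtrl 1, 7 without YCC10 siCtrl 2, 6 without SNU719 siMYB 2, and 5 without YCC10 siMYB 1 or siMYB 2. RRM2, TYMS and MTHFD1L passed in every alternative but the one without the libraries numbered 1, where 0 members passed by limma and 3 had an unadjusted p under 0.05. With the replicate block PFAS, NME1, MTHFD1 and TK1 also passed, each lower in YCC10. Called in both lines by the tests within each line were 15 members: PRPS1, PAICS, ATIC, IMPDH1, GMPS, DHODH, RRM1, RRM2, TYMS, DUT, SHMT1, MTHFD1, MTHFD2, ADA and SAMHD1. Over all genes, 9.18% were lower in both lines and 50.3% were called in neither. Neither line called PRPS2, ADSL, CTPS2, NME4, SHMT2 or DCTPP1, of which PRPS2, SHMT2 and DCTPP1 passed in both lines with the replicate block.

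**Figure D4:**
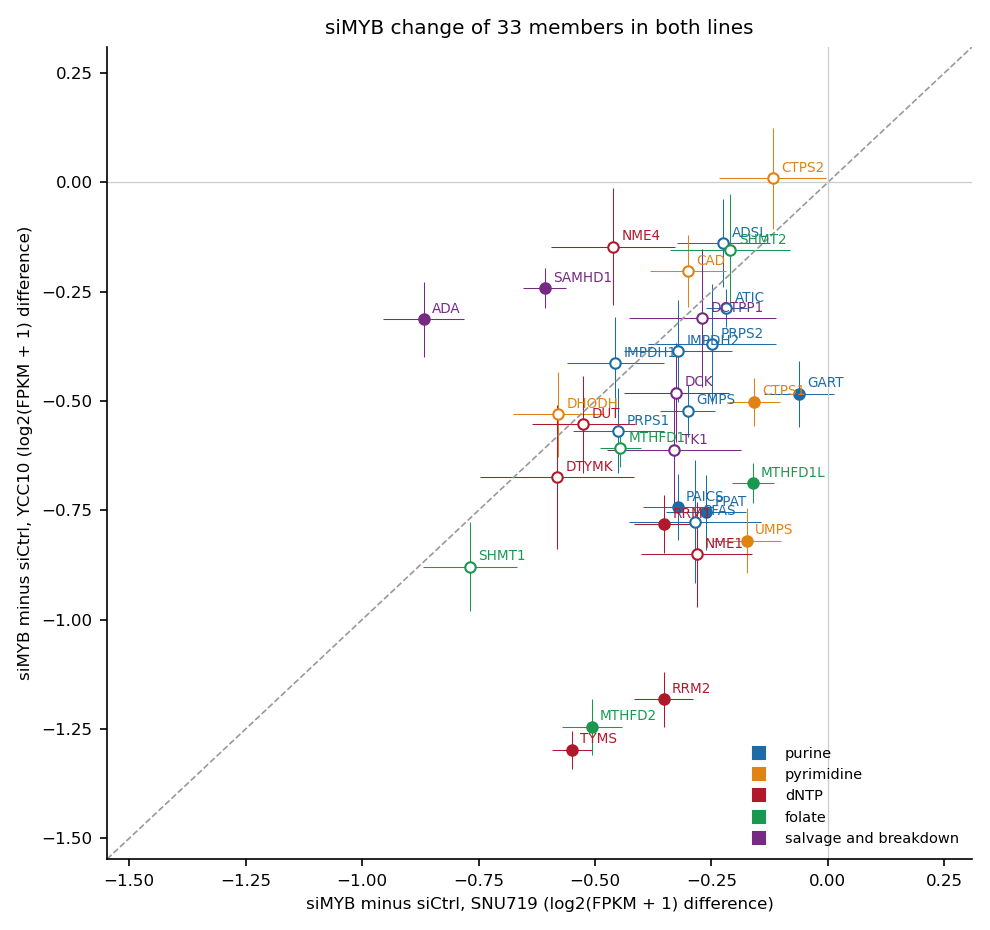
siMYB minus siCtrl on the log2(FPKM + 1) scale for the 33 members in SNU719 (horizontal axis) and YCC10 (vertical axis), with 1 SE in each direction; filled points passed the test of the difference between lines and the dashed line marks equal change. RRM2, TYMS and MTHFD2 lie far below the dashed line, and ADA and SAMHD1 above it.

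With siTCF7, 22 of 33 members fell over both lines and 0 rose, against 24.6% of all genes called, 13.2% as lower and 11.4% as higher. The median was -0.50 for the members and 0.00 for all genes. By branch, 6 of 11 purine, 2 of 5 pyrimidine, 6 of 7 deoxynucleotide, 5 of 5 folate and 3 of 5 salvage and breakdown members fell. There is 1 library per group and line, so the spread comes from a fit over all 16 libraries. Within a line only values can be given. That fit holds 1 siTCF7 and 1 sgMYB-E3 effect for both lines, so a line difference of either effect adds to the SE of both. Under 80% of control were 18 members in SNU719 and 25 in YCC10, against 13.1% and 26.3% of all genes.

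DCK had the largest change. It was at 12.6 FPKM with siTCF7 against 22.4 in its SNU719 control and at 4.17 against 19.3 in YCC10, 56.5% and 21.6% of control, the lowest share among the members in each line. Its log2 change was -1.38 ± 0.24 (SE; limma adjusted p = 0.0102). Ribonucleotide reductase followed: RRM2 was at 105 against 145 FPKM in SNU719 and 31.4 against 132 in YCC10, with a change of -1.25 ± 0.29 (limma adjusted p = 0.0199). RRM1 was at 47.9 against 69.1 FPKM in SNU719 and at 25.3 against 94.4 in YCC10, with a change of -1.19 ± 0.25 (limma adjusted p = 0.0147). In all 3 genes the YCC10 library was much further below its control than the SNU719 library.

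PRPS1, MTHFD1 and UMPS showed the same order between lines. PRPS1 was at 12.7 against 17.9 FPKM in SNU719 and 12.3 against 28.6 in YCC10, and fell by 0.81 ± 0.15 on the log2 scale (limma adjusted p = 0.0114). MTHFD1 was at 78.6 against 102 FPKM and at 51.2 against 109, and fell by 0.73 ± 0.14 (limma adjusted p = 0.0115). UMPS was at 5.95 against 8.12 FPKM and at 5.35 against 11.1, and fell by 0.66 ± 0.12 (limma adjusted p = 0.0104). Each was at a smaller share of control in YCC10. SHMT2, which did not pass with siMYB, was at 72.8 against 87.9 FPKM in SNU719 and 52.3 against 84.4 in YCC10 (-0.47 ± 0.14, limma adjusted p = 0.044). NME4 was at 0.797 FPKM in both SNU719 libraries and at 43.0 against 35.3 in YCC10, and did not pass.

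The siTCF7 count rests on YCC10. Without either the siCtrl or the siTCF7 library of YCC10, 4 members passed (RRM1, TYMS, MTHFD1 and SAMHD1), and without either SNU719 library of that set 25 did. MTHFD1L lost its call with the replicate block (limma adjusted p = 0.0573). Without the libraries numbered 1 of the MYB set, whose spread the fit uses, 0 passed by limma.

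Both with siMYB over both lines and with siTCF7, 21 members fell, which is 80.8% of the 26 called with siMYB and 95.5% of the 22 called with siTCF7. Over all 12029 genes tested in both, 923 were lower in both (7.67%), which is 36.9% of those lower with siMYB and 57% of those lower with siTCF7, and 57.9% were called in neither. ATIC, IMPDH1, DHODH, CTPS1 and ADA passed with siMYB and not with siTCF7, and SHMT2 the reverse, while PRPS2, GART, ADSL, CTPS2, NME4 and DCTPP1 passed in neither. The sets have separate controls. Across the 33 members the log2 changes had Pearson's r = 0.567 and Spearman's rho = 0.624, against 0.213 and 0.448 across all genes tested in both; genes are not independent replicates, and MYB was low in both sets. In the test of siMYB minus siTCF7 no member passed by limma, against 13.2% of all genes, 9.1% as lower and 4.07% as higher. At an unadjusted p under 0.05 by limma were 4 members, against 30% of all genes. They were ATIC (-0.22 ± 0.06), DCK (0.97 ± 0.30), NME4 (-0.44 ± 0.15) and SAMHD1 (-0.19 ± 0.06), where a positive value means a lower level with siTCF7. How many members passed by limma depended on the libraries used. Without a TCF7-set library the siTCF7 effect rested on 1 line, while the siMYB effect stayed a mean of both lines. The test then also held the difference between lines. No share of all genes stands beside the counts that follow, so they do not set the members apart. The count was 12 when either SNU719 library of the TCF7 set was left out, 10 of them lower with siTCF7, among them DCK, RRM1 and RRM2. It was 1 without either YCC10 library of that set (TYMS), 1 without YCC10 siMYB 2 (NME4), and 1 with the replicate block (ATIC, adjusted p = 0.0493).

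**Figure D5:**
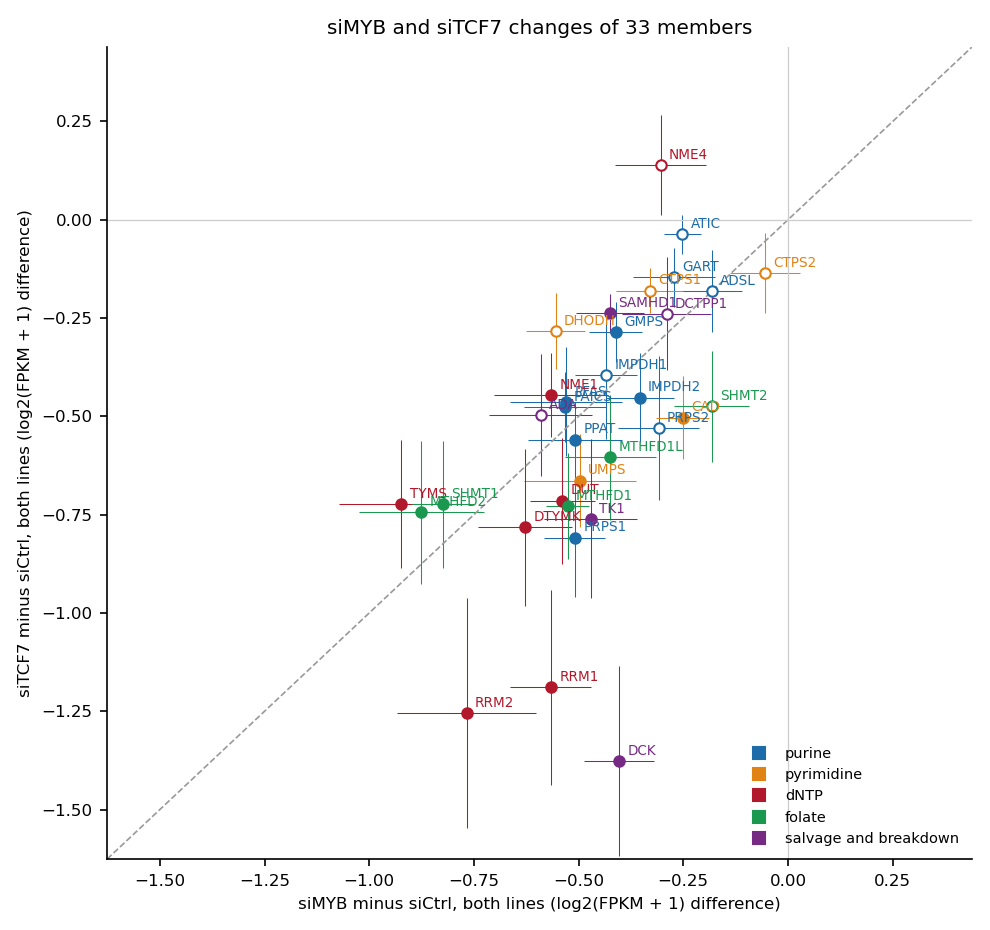
siMYB minus siCtrl (horizontal axis) and siTCF7 minus siCtrl (vertical axis) over both lines for the 33 members, on the log2(FPKM + 1) scale with 1 SE in each direction; filled points passed both tests and the dashed line marks equal change. DCK, RRM1 and RRM2 lie furthest below the dashed line and NME4 furthest above it.

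With sgMYB-E3 no member passed by limma, where 0.0325% of all genes were called, 0.0244% as lower and 0.00814% as higher. MTHFD2 alone had an unadjusted p under 0.05 by limma, which 3.75% of all genes had. The median log2 change of the members was -0.00478, that of all genes was 0.00159, and the SE of a member ranged from 0.05 to 0.29. MTHFD2 was at 161 FPKM against 184 in SNU719 and at 97.1 against 156 in YCC10, a change of -0.44 ± 0.18 (limma adjusted p = 1). It and SHMT2, at 93.7 against 118 FPKM in YCC10, were the 2 members under 80% of control in that line. There were 0 in SNU719. Among all genes the shares under 80% were 4.63% in SNU719 and 6.12% in YCC10. TYMS was at 150 against 149 FPKM and 145 against 137, RRM2 at 108 against 118 and 97.5 against 85.0, so neither was lower in both lines. IMPDH1 had the highest share of control, at 12.4 against 9.20 FPKM in SNU719, but at 56.5 against 62.5 in YCC10.

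The siMYB effect was lower than the sgMYB-E3 effect for 9 members, against 9.25% of all genes called, 6.38% as lower and 2.87% as higher: PPAT, PAICS, ATIC, GMPS, DHODH, CTPS1, TYMS, NME1 and SAMHD1. TYMS had the largest difference, -0.97 ± 0.20 (limma adjusted p = 0.0254; 0.0505 with the replicate block), and SAMHD1 the lowest adjusted p, with -0.49 ± 0.06 (limma adjusted p = 0.00548). PFAS (limma adjusted p = 0.0445) and DCTPP1 (0.0481) passed with the replicate block only. Every library moved this count: it was 0 without either YCC10 library of the CRISPRi set, 1 without either SNU719 library of that set, 2 to 5 without any 1 of the 8 MYB-set libraries, and 18 without any 1 of the 4 TCF7-set libraries. It was 0 without the libraries numbered 1, where 7 members had an unadjusted p under 0.05. Without a TCF7-set library, the difference between lines of the siTCF7 effect also leaves the SE. Without a CRISPRi-set library, the sgMYB-E3 effect rests on 1 line, while the siMYB effect stays a mean of both lines. No call here passed in every alternative. MYB was also left at a higher share by sgMYB-E3 (38.5% in SNU719 and 58.4% in YCC10) than by siMYB.

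Markers of dividing cells moved with the members. The sum of 12 S-phase genes was at 71.2% of control with siMYB in SNU719 and 61.1% in YCC10, at 73.3% and 35.9% with siTCF7, and at 96.2% and 107% with sgMYB-E3. For 10 mitotic genes the shares were 72.4% and 68.7%, 65.6% and 28.5%, and 89.8% and 102%. In the tests, 10 S-phase genes fell with siMYB in SNU719, 11 in YCC10 and 11 with siTCF7, and 8, 10 and 10 mitotic genes. Of all genes, 14.6%, 26.5% and 13.2% were called lower in these comparisons. With sgMYB-E3 no gene of either list passed, where 0.0244% of all genes were called lower. The part of proliferation in the members' changes was not tested.

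Other enzymes of the same pathways were lower or higher at shares near the background. Of the members, 78.8% fell with siMYB over both lines. Of 71 further genes from a list, 56 were tested with siMYB over both lines, of which 13 fell (23.2%) and 7 rose (12.5%), against 20.7% and 8.76% of all genes, with a median of -0.11; with median-of-ratios scaling 6 fell and 8 rose. In the purine branch 3 of 12 fell, AK1 (-0.92 ± 0.13) and PRPSAP2 (-0.60 ± 0.09) the most, and 1 rose. UCK2, a uridine-cytidine kinase (-0.49 ± 0.06), was the 1 pyrimidine gene of 4 that fell. In the deoxynucleotide branch NUDT1, which clears oxidized nucleotides, fell by 0.34 ± 0.10 on the log2 scale. In the folate branch 4 of 12 fell and 1 rose, led by MTR, methionine synthase (-0.58 ± 0.07), and SLC25A32, the mitochondrial folate carrier (-0.55 ± 0.15). In salvage and breakdown 3 of 17 fell and 5 rose, among them UPP1, uridine phosphorylase (-0.73 ± 0.11), and TK2, the mitochondrial thymidine kinase (0.58 ± 0.11). With siTCF7 9 of 57 fell (15.8%) and 7 rose (12.3%), against 13.2% and 11.4% of all genes, and with sgMYB-E3 none passed by limma.

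Promoter windows of 300 bases, from 250 before to 50 after a start site, were found for 30 members (RefSeq, GRCh38.p14), with 44 windows in all because some genes have several start sites; windows of 1 gene, and those of PPAT and PAICS, overlap. The MYB motif, TAACNG or CAACNG on either strand, was in 43.2% of the member windows and 46.2% of all 35116 windows. The PPAT window holds 3 matches, all outside the stretch printed above, while the overlapping PAICS window holds 0; the match counted for PAICS lies at another annotated start site further upstream. The E-box CACGTG was in 25% against 7.26%, with PPAT, PAICS, ATIC, DHODH, NME1, MTHFD1, MTHFD1L, DCK and DCTPP1 among its holders. The E2F motif, TTTCGCGC or TTTGGCGC, was in 6.82% against 1.15% (GART, DUT and DCK). CCAAT was in 45.5% against 34.6%, and the CHR element, TTTGAA or TTCGAA, in 11.4% against 16.4%. All were searched on both strands, none contains another, and a match is a description of letters and not of binding.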

How the data were processed

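RNA-seq libraries were made from 1 ug of total RNA with a stranded mRNA kit, per the labels. Per the submitters' processing notes, the tools were bcl2fastq 2.20.0, HISAT2 2.1.0 and Cufflinks 2.2.1 with hg38; the sources used here do not give settings or annotation. The authors deposited FPKM in 1 table of 33648 rows, which holds no counts, so the depth of each library is unknown and gives no interval. Rows of 1 symbol were summed (2097 symbols).

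Tests used limma 3.58.1 in R 4.3.3 on log2(FPKM + 1), with intensity trend, over genes whose mean reached 1 FPKM, Benjamini-Hochberg adjustment over all genes tested and a threshold of 0.05; fold changes on this scale understate those of low genes. The siMYB tests used the 8 MYB-set libraries, with 4 group means within lines and with line as covariate over both, where a difference between lines adds to the SE. The siTCF7 and sgMYB-E3 tests used all 16 libraries, with 1 effect of each shared by both lines. A line difference of either effect therefore adds to the SE. Single genes were not tested by permutation, since 2 libraries against 2 cannot go below p = 0.333. Replicate numbers pair the MYB-set libraries, as seen in the deviations of same-numbered libraries from their group means. Over 12095 genes these deviations correlated at 0.342 and 0.438 within lines and at 0.326 to 0.411 across lines. Over the members alone the correlations were higher, at 0.607 and 0.848 within lines and 0.449 to 0.912 across lines. The main fits leave this pairing out, and only the replicate block takes it in. The scripts were tested on simulated data with independent noise in each library and the same effects in both lines. The simulation held neither the replicate pairing nor a difference of effect between lines, so it does not bear on how far the calls can be relied on. Alternatives were other pseudocounts, filters and scalings, a replicate block, and libraries left out. Detailed values were given to the 4 members per branch with the largest siMYB change over both lines. The members and gene lists were chosen with earlier results of these data known. No table of proteins was used here.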

Additional observations from a re-analysis of the deposited data

Results flagged for a closer look

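For 12 members the siMYB effect differed between the lines in the limma test of the difference (YCC10 minus SNU719, log2 scale, 2 libraries per group and line). Lower in YCC10 were RRM2 (-0.83), TYMS (-0.75), MTHFD2 (-0.74), UMPS (-0.65), MTHFD1L (-0.53), PPAT (-0.49), RRM1 (-0.43), GART (-0.42), PAICS (-0.42) and CTPS1 (-0.34). Lower in SNU719 were SAMHD1 (0.37) and ADA (0.55).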

How the results depend on the processing

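The members' medians with siMYB and siTCF7 stayed below 0, and no member rose in these comparisons, under the scaling alternatives. With median-of-ratios scaling the counts were 11 in SNU719, 21 in YCC10 and 22 over both lines. The share of all genes under that scaling is not given within a line, so the counts of 11 and 21 do not set the members apart. Over all genes that scaling changed the split with siMYB over both lines from 2501 lower and 1060 higher to 1490 and 1593, and the median from -0.07 to 0.01. No called value of a member changed sign. Leaving out 1 library at a time gave 7 to 16 calls in SNU719, 20 to 26 in YCC10, 16 to 26 over both lines, 4 to 9 for the difference between lines, 4 to 25 with siTCF7, 0 to 12 for siMYB minus siTCF7, 0 to 18 for siMYB minus sgMYB-E3 and 16 to 18 between the controls. Where this leaves an arm with 1 library, that library is assumed to vary like the others. Where it leaves siTCF7 or sgMYB-E3 in 1 line, that effect is set against a siMYB mean of both lines.

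The replicate block gave 29 calls in SNU719 and 1 for siMYB minus siTCF7. It also added PRPS2, CAD, SHMT2 and DCTPP1 in YCC10, PRPS2, SHMT2 and DCTPP1 over both lines, DCTPP1 with siTCF7, and DHODH and DCK between the controls; apart from these and the members named beside the results it changed no other call. Without the filter on low values, siMYB minus siTCF7 had 1 call. The difference siMYB minus sgMYB-E3 had 4 calls with median-of-ratios scaling and 3 with quantile normalization. Without the libraries numbered 1, the calls were 0 in SNU719, 0 in YCC10, 0 over both lines, 0 for the difference between lines, 0 with siTCF7 and 0 for siMYB minus sgMYB-E3; that fit has 2 residual degrees of freedom and called 18, 28, 66, 35, 3 and 22 genes in all. Between the controls 15 members passed in it. Its counts at an unadjusted p have no share of all genes beside them, so they do not set the members apart. The cause of each change was not tested. FPKM without counts sets no floor on low values such as NME4 in SNU719.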
